A study of Mus musculus with 6 samples.

Results

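Expression of 10 dendritic cell genes was followed in macrophages of epididymal fat, the fat pad beside the testis of the mouse. These genes were chosen by name as markers of conventional, plasmacytoid and migratory dendritic cells, out of 30142 genes tested on the array. Each of them had 1 row of the deposited table, and that row was used. Mice were male C57BL/6J, and the arrays compared a high-fat diet (HFD, 60% fat) with normal chow (NCD). Each diet began at 6 weeks of age and lasted 16 weeks, so all mice were 22 weeks old. Each diet had 3 pools, HFD1 to HFD3 with cells of 10 mice each and NCD1 to NCD3 with cells of 20 mice each, with 1 array per pool. Cells of the collagenase-digested stromal vascular fraction were stained for the pan-macrophage antigen whose gene is Adgre1 and pulled down with magnetic beads, and 100 ng of RNA was labelled per array. A pool, not a mouse, was the replicate, and differences among individual mice within a pool were not measured.

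Dendritic cells carry antigen to T cells. Conventional dendritic cells grow under the Flt3 receptor and express the transcription factor gene Zbtb46. Their type 1 branch takes up dead cells and presents their antigens to CD8 T cells, whereas plasmacytoid dendritic cells make type I interferon. A dendritic cell that matures in a tissue switches on Ccr7 and migrates to the draining lymph node. In mouse, dendritic cells generally carry less of the antigen used for the selection than macrophages do.

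Values are log2 array signals. The background level of 6.23 log2 comes from control probe sets designed to match no genome: the 95th percentile of these was taken on each array and averaged. A gene with a lower mean was not told apart from background. The selection marker Adgre1 had 16.54, 16.55 and 16.70 log2 in HFD1 to HFD3 and 16.08, 15.93 and 15.05 log2 in NCD1 to NCD3. The macrophage growth factor receptor gene Csf1r averaged 15.66 ± 0.10 log2 in HFD and 15.48 ± 0.35 log2 in NCD arrays (SD, n = 3 each). NCD arrays stood further apart from one another: over all genes tested, HFD arrays correlated at 0.9954 to 0.9965 and NCD arrays at 0.9852 to 0.9942. NCD1 had the highest level of all 6 measured B cell genes and of 8 of 9 T cell genes, and NCD3 of all 11 endothelial genes. Defining markers of other cells were present too: the endothelial cadherin gene Cdh5 had 14.11 to 15.39 log2 in HFD and 14.84 to 16.79 log2 in NCD arrays, and the smooth muscle actin gene Acta2 9.97 to 12.21 log2 in HFD and 14.68 to 16.26 log2 in NCD arrays. The natural killer cell receptor gene Ncr1 was below background on all 6 arrays.

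The promoters of Siglech and Clec9a are shown because these were the only members whose 2 diets did not overlap. Over all genes tested, 30.6% had no overlap in either direction, so this does not set the 2 genes apart. Each window runs from 250 bases before to 50 after the RefSeq start on GRCm38.p6, 5′ to 3′. Capitals mark the letters CANNTG, the E-box read by E proteins such as TCF4, a lineage factor of plasmacytoid dendritic cells, and GAGGAA on either strand, a core of sites for the myeloid factor PU.1.
Siglech, chr7:55767934-55768233, plus strand: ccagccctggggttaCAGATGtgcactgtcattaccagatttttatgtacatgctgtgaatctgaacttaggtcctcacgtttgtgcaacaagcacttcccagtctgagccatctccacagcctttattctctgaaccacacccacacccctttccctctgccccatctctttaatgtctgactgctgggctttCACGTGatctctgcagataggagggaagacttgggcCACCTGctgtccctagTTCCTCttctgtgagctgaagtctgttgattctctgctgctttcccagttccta
Clec9a, chr6:129408612-129408911, plus strand: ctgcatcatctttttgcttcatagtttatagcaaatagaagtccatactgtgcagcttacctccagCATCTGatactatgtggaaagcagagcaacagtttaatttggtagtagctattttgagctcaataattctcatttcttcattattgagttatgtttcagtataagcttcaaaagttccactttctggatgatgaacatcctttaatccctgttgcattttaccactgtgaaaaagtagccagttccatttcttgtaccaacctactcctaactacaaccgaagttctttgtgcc

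The Siglech window held 3 E-boxes and 1 PU.1 core, and the Clec9a window held 1 E-box and 0 PU.1 cores. No E-box overlapped a PU.1 core in either window. Such letters are common: of 32851 RefSeq promoter windows of the same length, 72.3% held an E-box and 28.3% held the PU.1 core. Promoter windows were matched for 8 members, of which 7 held an E-box and 2 held the PU.1 core. Binding was not measured here.

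Of the 10 dendritic cell genes, only Siglech passed the test for a change between the diets, lower in HFD. The other 9 did not pass, and 0 members were called higher. The test was limma with Benjamini-Hochberg adjustment over all genes tested, called at an adjusted p below 0.05. By limma 3 members had an unadjusted p below 0.05 (Siglech, Clec9a and Zbtb46). With 3 pools per diet, not passing does not show that a gene was unchanged. Over all 30142 genes, 7.83% were called and 2.87% were called lower in HFD, so 1 call among 10 members is near the background rate. An unadjusted p below 0.05 was found for 7356 of the 30142 genes, so 3 such members are near the background rate too. The median change was −0.05 log2 over the members and 0.01 over all genes. Of all genes, 1494 were called higher and 865 lower, and with each array centred on its median 2573 were called higher and 693 lower. Without NCD1, 4 members were called, with Clec9a, Zbtb46 and Fscn1 beside Siglech. Calls over all genes rose as well in that fit, from 2359 to 4713 of 30142.

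**Figure D1:**
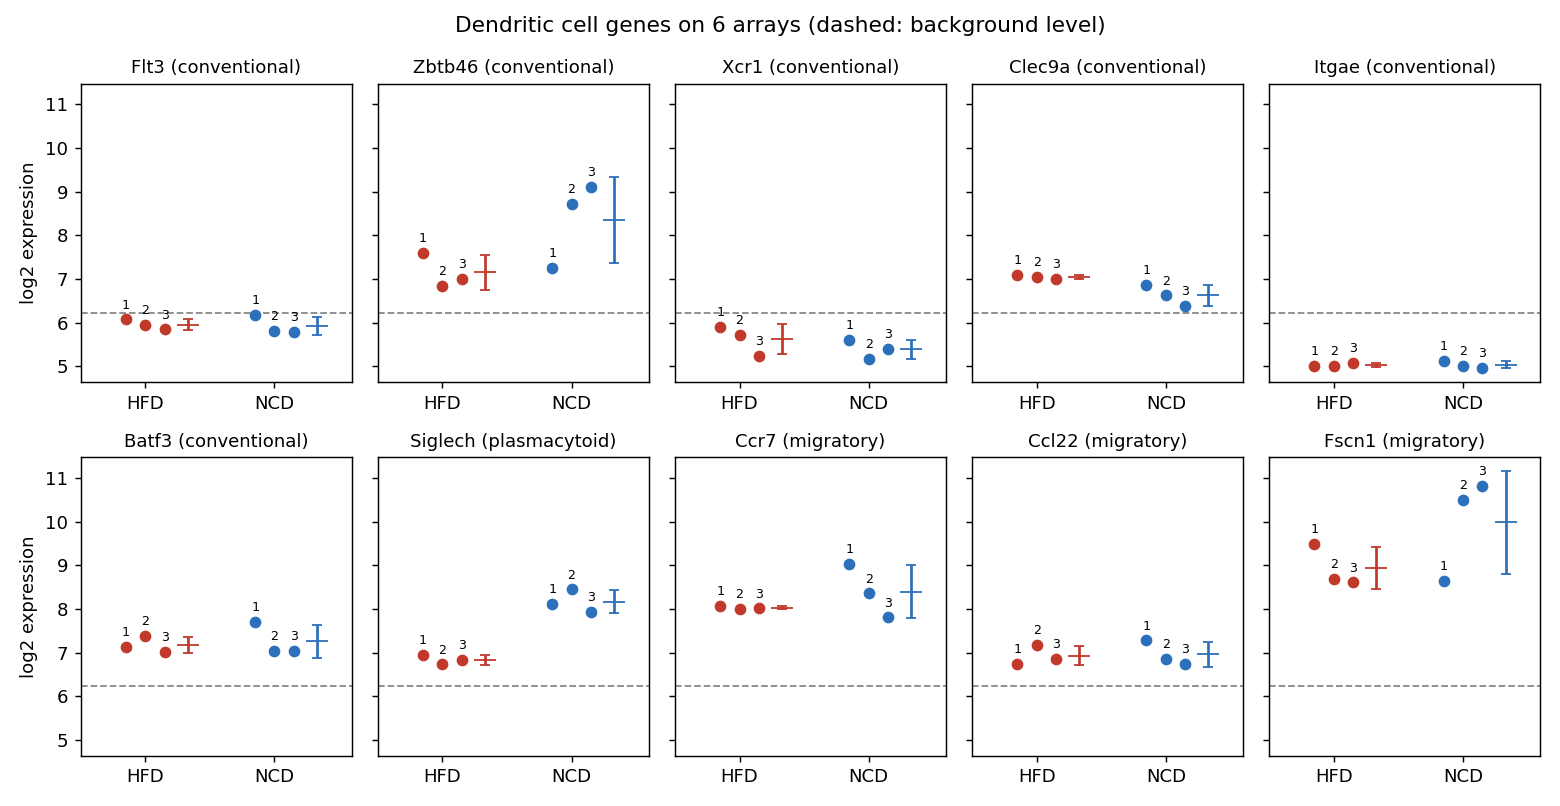
Log2 expression (y axis) of the 10 dendritic cell genes on each array, HFD at the left of each panel and NCD at the right, with numbered points for pools 1 to 3, a cross bar with whiskers for the mean and SD of 3 pools, and a dashed line for the background level of 6.23 log2. Siglech lay at 6.73 to 6.96 log2 in HFD and at 7.94 to 8.45 log2 in NCD, and Flt3, Xcr1 and Itgae lay below the line on all 6 arrays.

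Siglech, the plasmacytoid member, encodes a sialic acid-binding receptor of mouse plasmacytoid dendritic cells that is also found on microglia and some macrophages. It had 6.96, 6.73 and 6.84 log2 in HFD1 to HFD3, against 8.11, 8.45 and 7.94 log2 in NCD1 to NCD3. All HFD pools lay below all NCD pools, as for 3912 of all 30142 genes, and the HFD values were slightly above background. The change of −1.32 ± 0.15 (SE) log2 is a 2.504-fold fall (adjusted p = 0.00734), and its 95% interval put the HFD level at 0.313 to 0.510 of the NCD level. The call held without each array in turn, at −1.44 to −1.18 log2 and adjusted p up to 0.0447. With the mean of endothelial markers as a covariate the change was −1.26 ± 0.22 log2 with an adjusted p of 0.0558. That mean itself differed between the diets, so this fit cannot fully tell its part from the diet. Mean deviations of the endothelial markers still overlapped between the diets, at −1.51 to −0.03 log2 in HFD and −0.46 to 1.98 log2 in NCD arrays (0 of 11 called). Lists of smooth muscle and pericyte genes and of mesothelial genes separated the diets. Smooth muscle and pericyte markers had mean deviations from their 6-array mean of −1.99 to −0.86 log2 in HFD and 0.56 to 2.51 log2 in NCD arrays (7 of 9 lower in HFD), and mesothelial markers −1.04 to −0.81 log2 in HFD and 0.64 to 1.32 log2 in NCD arrays (6 of 6 lower in HFD, 4 of them with a mean below background). Macrophage markers overlapped, at 0.06 to 0.26 log2 in HFD and −0.60 to 0.11 log2 in NCD arrays (2 of 10 called higher, 1 lower). Adgre1 itself was 0.91 log2 apart (adjusted p = 0.0924). The part of these cells in the Siglech values was not tested. On arrays of pooled tissue cells, fewer cells of a type and less RNA per cell cannot be told apart.

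Of 20 other measured genes of the plasmacytoid program, 1 rose, 1 fell and 18 were not called, with a median change of −0.12 log2. The 12 with a mean above background had a change below 0 in 9 genes, of which Cobll1 alone was called. These directions are a description without a test, and the matching share over all genes above background is not given here. Cobll1 fell by 1.98 ± 0.22 log2 (adjusted p = 0.00734), a call kept without each array, though not with the endothelial covariate (adjusted p = 0.0531). Blnk, an adaptor of B cell receptor signalling that macrophages also use, rose by 2.15 ± 0.33 log2 (adjusted p = 0.0163), and this call was lost without HFD2, HFD3 or NCD2. The other 8 of the 20 were below background on all 6 arrays and could show little change, among them Pacsin1, Klk1 and Ccr9, the chemokine receptor of gut-homing plasmacytoid cells, at 5.58 to 5.75 log2 in HFD and 5.44 to 5.79 log2 in NCD arrays. Spib, a transcription factor gene of plasmacytoid and B cells, had 6.02, 6.17 and 6.13 log2 in HFD, against 7.35, 6.51 and 6.00 log2 in NCD arrays, the highest on NCD1. Ly6d had 7.29, 7.67 and 6.98 log2 in HFD and 8.96, 7.84 and 7.44 log2 in NCD arrays, at −0.77 ± 0.39 log2 (adjusted p = 0.296). Bst2, a tetherin gene that interferon raises in many cells, was at −0.73 ± 0.42 log2 (adjusted p = 0.348). Tcf4 had 12.28, 11.92 and 11.72 log2 in HFD, against 12.24, 12.79 and 13.04 log2 in NCD arrays (adjusted p = 0.131), the highest on NCD3. With the endothelial covariate Tcf4 was at −0.08 log2 and Bst2 at 0.20 log2, while Ly6d was at −1.64 log2 and Spib at −1.29 log2, none of them called. NCD1 was the highest array for 11 of the 20 genes (55.0%), against 17.7% of all genes tested. Among these 11, Ccr9, Pacsin1, Lag3, Ptprcap and Dntt were below background on all 6 arrays, where the highest array says little. The share over all genes counts dim genes too.

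Of the 6 conventional members, 3 were not told apart from background. Flt3, the receptor tyrosine kinase for the dendritic growth factor FLT3 ligand, had 6.08, 5.96 and 5.84 log2 in HFD, against 6.17, 5.81 and 5.79 log2 in NCD arrays. Xcr1, the chemokine receptor that defines type 1 conventional dendritic cells, had 5.91, 5.73 and 5.24 log2 in HFD and 5.60, 5.17 and 5.41 log2 in NCD arrays. Itgae, the integrin chain CD103 of type 1 dendritic cells and of T cells in epithelium, hardly varied between arrays, at 5.01 to 5.08 log2 in HFD and 4.96 to 5.12 log2 in NCD arrays. On all 6 arrays these 3 genes were below the background level of that array. Their 95% intervals for the change were −0.27 to 0.34 log2 for Flt3, −0.23 to 0.69 log2 for Xcr1 and −0.17 to 0.16 log2 for Itgae, and a signal below background can hide a change.

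Clec9a, the receptor by which type 1 dendritic cells sense the actin of dead cells, was slightly above background. It had 7.09, 7.05 and 7.01 log2 in HFD1 to HFD3, against 6.86, 6.62 and 6.39 log2 in NCD1 to NCD3, so the diets did not overlap. Groups without overlap were common on these arrays, at 30.6% of all genes in either direction. The change of 0.42 ± 0.13 log2 did not pass the test (adjusted p = 0.102). It passed without NCD1 (0.54 log2, adjusted p = 0.0222), with array weights (adjusted p = 0.0357) and with each array centred on its median (adjusted p = 0.0438). With the endothelial covariate it was 0.20 log2 (adjusted p = 0.665). Mast cell markers were also higher in HFD on average, at 0.24 to 0.83 log2 against −0.69 to −0.41 log2 in NCD arrays. Of these 6 genes 4 were called higher and 2 had a mean below background. Fibroblast and adipose progenitor markers were at 0.27 to 0.89 log2 in HFD and −0.77 to −0.42 log2 in NCD arrays, with 5 of 7 called higher. Dcn (−0.88 log2, all HFD pools below all NCD pools) and Pi16 (−0.10 log2) went the other way, uncalled. The part of these cells in the Clec9a values was not tested.

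Batf3, the transcription factor gene that type 1 dendritic cells need, is also used by activated T cells and macrophages. Its levels were 7.14, 7.39 and 7.02 log2 in HFD and 7.70, 7.05 and 7.04 log2 in NCD arrays. The groups overlapped, with NCD1 highest, and the change was −0.08 ± 0.20 log2 (adjusted p = 0.859, 95% interval −0.57 to 0.40).

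Zbtb46 encodes a zinc finger factor of conventional dendritic cells that endothelial cells express too. It had 7.60, 6.85 and 7.002 log2 in HFD1 to HFD3, against 7.25, 8.72 and 9.10 log2 in NCD1 to NCD3. NCD2 and NCD3 stood above the other 4 arrays, and NCD1 lay within the HFD range. The change of −1.20 ± 0.48 log2 was not called (adjusted p = 0.187), and without NCD1 it was −1.76 ± 0.25 log2 with a call (adjusted p = 0.0101). The mean deviation of 11 endothelial markers from their 6-array mean put the same 4 arrays on top in the same order (NCD3, NCD2, HFD1, NCD1). It was −0.03, −1.46 and −1.51 log2 in HFD1 to HFD3, against −0.46, 1.48 and 1.98 log2 in NCD1 to NCD3. With that mean as a covariate the Zbtb46 change was 0.14 ± 0.20 log2 (adjusted p = 0.834). Pecam1, an adhesion molecule of endothelium, had 13.89, 12.50 and 12.40 log2 in HFD and 13.57, 14.98 and 15.54 log2 in NCD arrays. Endothelial genes were far above background in both diets, and their part in the Zbtb46 values was not tested. The endothelial mean itself averaged −1 log2 in HFD and 1 log2 in NCD arrays, so the covariate fit cannot tell that part from the diet.

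The migratory members did not share a pattern. Fscn1, the actin-bundling protein fascin of mature dendritic cells, is found in endothelial and other stromal cells as well, and it moved with Zbtb46. It had 9.49, 8.69 and 8.61 log2 in HFD1 to HFD3, against 8.64, 10.49 and 10.82 log2 in NCD1 to NCD3. NCD2 and NCD3 were again the highest and NCD1 lay among the HFD pools. The change was −1.05 ± 0.58 log2 (adjusted p = 0.329), −1.72 ± 0.29 log2 with a call without NCD1 (adjusted p = 0.0150), and 0.57 ± 0.22 log2 with the endothelial covariate (adjusted p = 0.294). Smooth muscle and pericyte markers also had NCD3 and NCD2 on top, at 2.51 and 1.51 log2, with NCD1 at 0.56 log2. The part of endothelial or smooth muscle RNA in the Fscn1 values was not tested, and the covariate fit cannot tell it from the diet.

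Ccr7, the receptor that guides mature dendritic cells and naive lymphocytes to lymph nodes, had 8.07, 8.002 and 8.01 log2 in HFD and 9.03, 8.36 and 7.81 log2 in NCD arrays. The HFD pools nearly coincided, and the NCD pools lay on either side of them. The SD of 0.61 log2 in NCD was 15.8 times that in HFD, and the change of −0.37 ± 0.29 log2 did not pass the test (adjusted p = 0.502). Without NCD1 it was −0.05 log2. Ccl22, the chemokine by which mature dendritic cells and macrophages draw Ccr4-bearing T cells, had 6.75, 7.18 and 6.87 log2 in HFD and 7.28, 6.85 and 6.74 log2 in NCD arrays. Its groups overlapped fully and the change was −0.03 ± 0.18 log2 (adjusted p = 0.951, 95% interval −0.45 to 0.40).

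**Figure D2:**
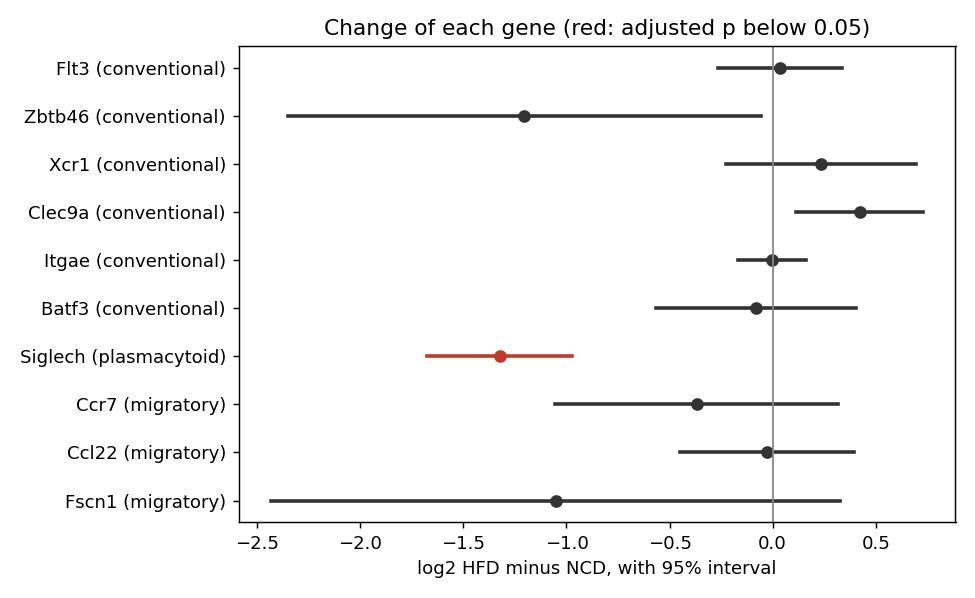
Change of each dendritic cell gene (x axis, log2 HFD minus NCD) with its unadjusted 95% interval from limma, 3 pools per diet, one gene per line. Siglech, in red, is the only gene with an adjusted p below 0.05, and Zbtb46 and Fscn1 have the widest intervals.

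Both patterns seen within NCD ran alongside markers of other cells. NCD1 was the highest array for 5 of the 10 members (Flt3, Ccr7, Itgae, Batf3 and Ccl22), against 17.7% of all genes. B cell markers had mean deviations of −0.49, 0.07 and −0.48 log2 in HFD1 to HFD3 and 1.32, 0.09 and −0.51 log2 in NCD1 to NCD3, and all 6 of them were above background. Ms4a1, the B cell antigen CD20, had 10.30, 11.33 and 10.20 log2 in HFD, against 13.09, 10.97 and 10.35 log2 in NCD arrays. T cell markers were at −0.25, −0.15 and −0.20 log2 in HFD and 0.56, −0.02 and 0.05 log2 in NCD arrays, with 7 of 9 below background, among them the T cell receptor component gene Cd3e, which passed background on NCD1 alone. NCD1 was also highest for 6 of 7 monocyte genes and for all 6 mesothelial genes. Among the members that peaked on NCD1, Ccr7, Batf3 and Ccl22 had levels above background. The part of B cell, T cell, monocyte or mesothelial RNA in their signal was not tested.

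**Figure D3:**
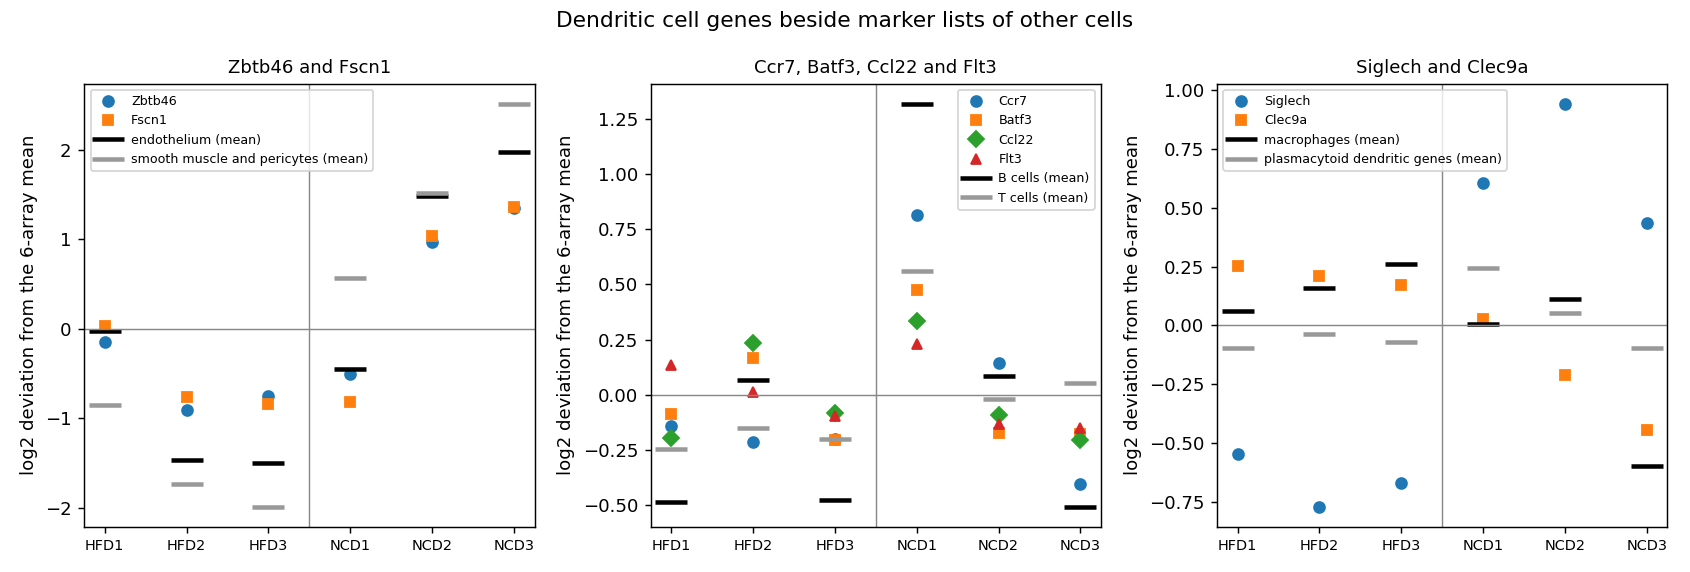
Log2 deviation from the 6-array mean (y axis) of dendritic cell genes, as points, and of marker lists of other cells, as bars, on HFD1 to HFD3 and NCD1 to NCD3 (x axis; each panel has its own y scale). Zbtb46 and Fscn1 (left) lie high on NCD2 and NCD3, where the endothelial mean is 1.48 and 1.98 log2, Ccr7, Batf3, Ccl22 and Flt3 (middle) are highest on NCD1, where the B cell mean is 1.32 log2, and Siglech (right) is low on all HFD arrays.

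Averaged by class, the 6 conventional members deviated by 0.09, −0.05 and −0.18 log2 in HFD1 to HFD3 and by 0.07, 0.02 and 0.07 log2 in NCD1 to NCD3. The 3 migratory members deviated by −0.10, −0.25 and −0.38 log2 in HFD and by 0.11, 0.36 and 0.25 log2 in NCD arrays. The plasmacytoid class is Siglech alone, at −0.55, −0.77 and −0.67 log2 in HFD and 0.61, 0.94 and 0.44 log2 in NCD arrays. The conventional and migratory means joined genes with unlike patterns, Zbtb46 or Fscn1 against the rest, and are descriptions without a test.

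Among 15740 other genes above background, those most like each class mean over the 6 arrays were ranked by Pearson correlation. Siglech was closest to Plk3, a stress-response kinase gene (r = 0.9986), and Cyth1, an exchange factor for ARF GTPases (r = 0.9978). Plk3 fell by 0.95 ± 0.12 log2 and Cyth1 by 0.75 ± 0.12 log2 in HFD. The others were Gm6570, Gm23485 and the RNA helicase gene Ddx60. The migratory mean was closest to Chd6, 1600020E01Rik, Sorbs3, Eml6 and Zfp36l1, at r of 0.9954 to 0.9977. The conventional mean was closest to Gm13153, Gm14401, Krtap17-1, C7 and Gm13170, at r of 0.9708 to 0.9806. None of these 15 is on the dendritic lists, and with 6 arrays in 2 diets such correlations describe only the order and spacing of the arrays.

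Wider lists of dendritic cell genes held 110 measured genes beside the members. Of these, 8 rose, 11 fell and 91 were not called (17.3% of the 110 called, against 7.83% of all genes). All of the called genes were among the 83 of the 110 with a mean above the background level. The 8 higher and 11 lower among these 83 stand beside 2096 called of all 15747 genes above that level (13.3%). Below it lay 27 of the 110 and 14395 of the 30142 genes, so 17.3% and 7.83% are not like rates. The lists were chosen with earlier results of these data known, so the share called is a description without a test. The median change of the 110 was −0.13 log2. Genes went both ways in each of the 5 lists of dendritic programs, and many of the genes named below are also expressed by macrophages.

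Among 18 genes shared by conventional dendritic cells, 2 rose, 2 fell and 14 were not called, with a median of −0.18 log2. Rab7b, a small GTPase of late endosomes, rose by 1.93 ± 0.31 log2, and Ap1s3, a clathrin adaptor subunit, by 1.64 ± 0.33 log2. Kmo, an enzyme of the kynurenine pathway, fell by 1.12 ± 0.18 log2 and Cbfa2t3, a transcriptional corepressor, by 0.89 ± 0.15 log2. All 4 calls were lost without any one HFD array and without NCD2, and that of Ap1s3 also without NCD3. Dpp4, the peptidase CD26 of type 1 dendritic cells and T cells, had 8.11, 8.001 and 7.58 log2 in HFD and 10.40, 8.69 and 8.86 log2 in NCD arrays and was not called (−1.42 ± 0.45 log2, adjusted p = 0.112). Spint2, a protease inhibitor, was at −1.76 ± 0.46 log2 (adjusted p = 0.0699).

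Among 16 genes of type 1 conventional dendritic cells, 2 rose, 2 fell and 12 were not called, with a median of −0.01 log2. Cadm1, an adhesion molecule used to identify these cells across tissues, had 10.51, 11.13 and 10.95 log2 in HFD, against 7.48, 7.40 and 7.12 log2 in NCD arrays. This rise of 3.53 ± 0.19 log2 (adjusted p = 0.00138) stayed called when any array was left out and under the endothelial covariate, beside Xcr1 and Itgae below background in both diets. Irf8, a transcription factor gene needed by type 1 and plasmacytoid dendritic cells and also active in macrophages, rose by 1.24 ± 0.21 log2 (adjusted p = 0.0224). Cd24a, a surface glycoprotein of many cell types, fell by 2.06 ± 0.28 log2, and Ly75, the endocytic receptor DEC-205, by 0.77 ± 0.15 log2. The Irf8 and Ly75 calls were lost without any one HFD array and without NCD2, and the Cd24a call without HFD3 or NCD2. Plpp1, a lipid phosphatase gene, was at −1.62 ± 0.68 log2 (adjusted p = 0.204) and Wdfy4, needed for cross-presentation, at 0.81 ± 0.35 log2 (adjusted p = 0.218).

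Among 17 genes of type 2 conventional dendritic cells, 2 rose, 2 fell and 13 were not called, with a median of −0.21 log2. The lectin gene Cd209a had 9.08, 9.59 and 8.51 log2 in HFD, against 12.15, 12.36 and 11.63 log2 in NCD arrays. It fell by 2.99 ± 0.31 log2 (adjusted p = 0.00643) and kept its call without each array. Mgl2, a galactose-binding lectin of dermal dendritic cells and macrophages, fell by 1.69 ± 0.25 log2, a call lost without HFD2, HFD3 or NCD2. Sirpa, the receptor for CD47, rose by 1.24 ± 0.23 log2 and the lectin receptor gene Clec4a2 by 1.33 ± 0.24 log2, both lost without any one HFD array and without NCD2. Tnip3, an inhibitor of NF-κB signalling, was at 1.57 ± 0.40 log2 (adjusted p = 0.0641), and Esam, also an endothelial adhesion molecule, at −1.90 ± 0.73 log2 (adjusted p = 0.170).

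Of 30 migratory and mature dendritic genes, 1 rose, 4 fell and 25 were not called, with a median of −0.19 log2. Serpinb6b, a serine protease inhibitor, had 12.12, 12.25 and 12.66 log2 in HFD, against 9.23, 9.07 and 9.46 log2 in NCD arrays. It rose by 3.096 ± 0.18 log2 (adjusted p = 0.00143) and kept its call without each array. Lower in HFD were Aldh1a2, which makes retinoic acid (−1.92 ± 0.35 log2), Cd274, the checkpoint ligand PD-L1 (−1.05 ± 0.21 log2), Il15ra, which presents interleukin-15 (−0.82 ± 0.16 log2), and Birc2, an inhibitor of apoptosis (−0.59 ± 0.12 log2). These 4 calls were lost without any one HFD array and without NCD2, and those of Il15ra and Birc2 also without NCD3. Ccl17, the partner chemokine of Ccl22, had 6.04, 5.71 and 6.39 log2 in HFD and 8.38, 6.73 and 7.14 log2 in NCD arrays, so the diets did not overlap, at −1.37 ± 0.42 log2 (adjusted p = 0.103). Adcy6, an adenylate cyclase, was at −1.41 ± 0.43 log2 (adjusted p = 0.103). The costimulatory gene Cd86 was not called (−0.73 log2, adjusted p = 0.305), nor was Cd80 (−0.48 log2, adjusted p = 0.506), and the interleukin-12 subunit gene Il12b lay below background on all 6 arrays.

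**Figure D4:**
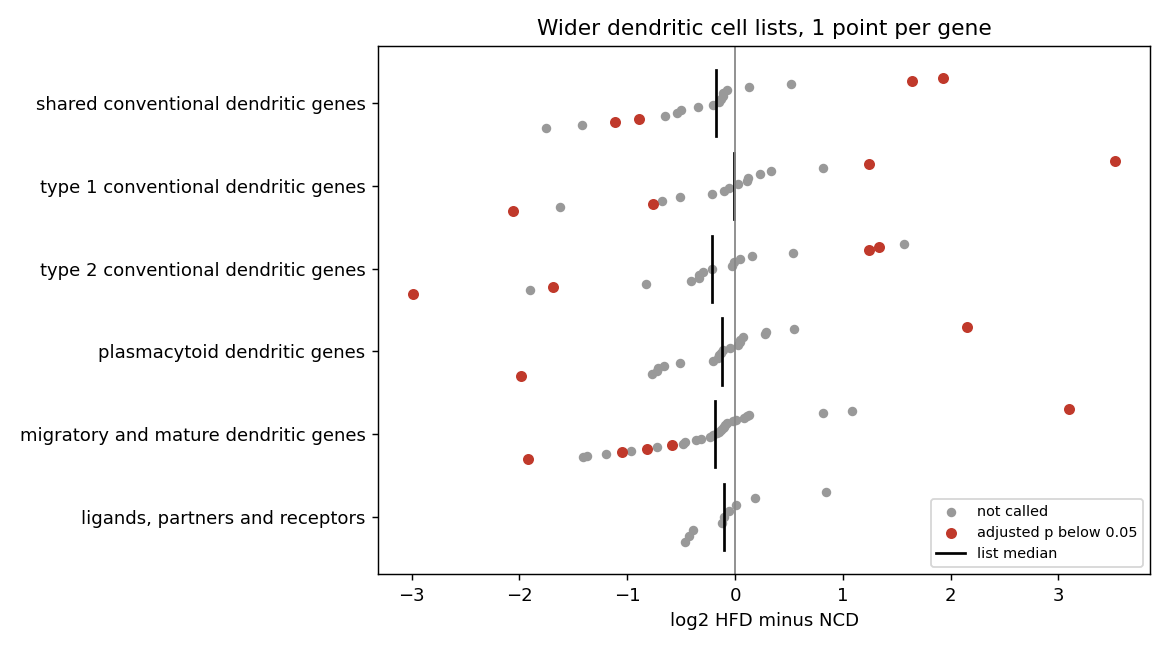
Change of each gene (x axis, log2 HFD minus NCD) in 6 lists of dendritic cell genes and their ligands, 1 point per gene, red where the adjusted p was below 0.05, with the list median as a black bar. Red points lie on both sides of 0 in the 5 program lists, from −2.99 for Cd209a to 3.53 for Cadm1, and the list medians lie between −0.21 and −0.01 log2.

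Of 9 measured ligands, partners and receptors of the members, 0 rose and 0 fell by limma, with a median of −0.11 log2, and 6 were below background. By limma 2 had an unadjusted p below 0.05 (Flt3l and Csf2ra), as had 7356 of all 30142 genes. The ligand genes Xcl1 (for Xcr1) and Ccl19 (for Ccr7) and the Ccl22 receptor gene Ccr4 had means below background. Flt3l, the ligand of Flt3, had 8.68, 8.61 and 8.56 log2 in HFD, against 8.73, 9.16 and 9.13 log2 in NCD arrays, so all HFD pools lay below all NCD pools, at −0.39 ± 0.14 log2 (adjusted p = 0.149). Itgb7, the β chain that pairs with CD103, was at 9.11 to 9.18 log2 in HFD and 9.04 to 10.10 log2 in NCD arrays (adjusted p = 0.329). Csf2ra, a receptor chain for GM-CSF, a growth factor of dendritic cells and macrophages, was at 0.85 ± 0.28 log2 (adjusted p = 0.120).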

How the data were processed

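Array expression was measured in 6 pools of adipose tissue macrophages, 3 per diet. The deposited table holds log2 values per transcript cluster as the authors made them. Per the submitters' processing notes, RMA, Transcriptome Analysis Console (version 3.1.0.5) and Expression Console (version 1.4.1.46) were used; options, library files and genome build are not given in the sources used here. Column medians over all probe sets were 5.95 to 6.03 log2.

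Control probe sets were dropped. Clusters with 1 symbol in the platform annotation were kept (30604 of 65956), 827 symbols were updated by Entrez identifier, and the row with the highest mean stood for a gene, which left 30142 genes with no filter on dim ones. HFD was compared with NCD by limma 3.58.1 (lmFit, eBayes with a mean-variance trend) in R 4.3.3, two-sided, with Benjamini-Hochberg adjustment over all genes and calls below 0.05. The test was checked on simulated data. The number of arrays limits precision: the median standard error was 0.118 log2 over all genes tested and 0.185 log2 over the 10 members. Pool replicates come from the sample titles, and whether pools were processed separately beyond that was not given, so p-values measure the spread between these samples.

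The members and lists were chosen with earlier results of these data known. Of each wider list, up to 5 called genes by adjusted p and the 2 largest uncalled changes were named, as were the 5 genes most like each class mean. Genes named beside these (Ccr9, Pacsin1, Klk1, Spib, Tcf4, Cd86, Cd80, Il12b, Xcl1, Ccl19, Ccr4 and Flt3l) were picked for their role after values were seen. Promoter windows came from RefSeq (GRCm38.p6). Alternatives were each array left out, replicate block, median centring, genes above background, no trend, array weights, endothelial covariate and the mean of a gene's rows. Figures used matplotlib 3.10.9.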

Additional observations from a re-analysis of the deposited data

How the results depend on the processing

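With all 6 arrays 2359 genes and 1 member, Siglech, were called. Without 1 array in turn, 442 to 4713 genes and 1 to 4 members were called. The counts of genes and members were 4282 and 2 with array weights (Clec9a beside Siglech), 560 and 0 with the endothelial covariate, and 3266 and 2 with median centring (Clec9a beside Siglech). In the limma fit with the covariate 4 members had an unadjusted p below 0.05. That count was not taken over all genes, so whether it exceeds the background rate is not known. Siglech kept its direction under all 13 alternatives, at −1.44 to −1.18 log2, and its call under 11 of them. The number of genes called on the wider lists was 8 higher and 11 lower, 2 to 11 higher and 2 to 21 lower without 1 array, and 2 and 8 with the covariate.

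The replicate block left 144 genes and 0 members called, with Siglech at an adjusted p of 0.0614. By limma with the block 2 members had an unadjusted p below 0.05, a count again not taken over all genes and so without a background rate. Whether same-numbered pools were handled together was not given. Deviations of same-numbered arrays from their group means correlated at −0.46, −0.12 and −0.15 for numbers 1 to 3, and no array correlated best with its own number. Deviations from the mean of so few arrays depend on one another, so these correlations cannot decide whether the pools were paired.

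Uncalled changes of 6 members turned sign, 4 of them near 0. Without 1 array in turn, Flt3 ran from −0.033 to 0.16 log2, Itgae from −0.038 to 0.040, Batf3 from −0.19 to 0.14 and Ccl22 from −0.15 to 0.13 log2. Median centring gave Itgae 0.087, Batf3 0.0079 and Ccl22 0.063 log2, and array weights gave Itgae 0.0014, Batf3 0.032 and Ccl22 0.031 log2. With the endothelial covariate Flt3 was at −0.12 log2, and the 2 largest uncalled changes turned too, Zbtb46 to 0.14 (−1.20 without the covariate) and Fscn1 to 0.57 (−1.05 without it). The cause was not tested. Flt3, Itgae and Xcr1 lie below background, which limits what their changes can show.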
